A study of Homo sapiens with 23 samples.

Results

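LNCaP cells treated for 7 days with enzalutamide at 10 µM together with an inhibitor of ONECUT2 (OC2) at 10 µM were compared with LNCaP cells given vehicle for the same 7 days. The comparison used 6 of the 23 libraries of the study, 3 per arm, chosen by their labels and by the count columns of the same names, with every gene symbol of the table eligible. LNCaP is an established human prostate adenocarcinoma line that responds to androgens, and both arms were grown in RPMI medium with serum. No transgene, allele or further agent is given for either arm. The other LNCaP libraries of the study carry enzalutamide alone, OC2 overexpression with its control, or a hairpin against OC2 (shOC2) with a control hairpin (shCon), and the rest are LAPC4 cells with or without OC2 overexpression. None of the 23 libraries is labelled as given the OC2 inhibitor alone, so the share of each drug in a difference from vehicle cannot be told apart. The labels do not say whether the libraries of an arm came from separate cultures, so the p-values measure the spread between these libraries, which may be technical.

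Enzalutamide is an antiandrogen: it stops androgens from driving transcription in luminal prostate cells. In such cells androgens raise the kallikrein proteases, TMPRSS2, FKBP5 and lipid and cell cycle genes, and hold down others, among them the UGT2B enzymes that inactivate androgens by glucuronidation. ONECUT2 is a transcription factor of the CUT homeobox family, studied in prostate cancer as a driver of growth that no longer needs androgens. RNA was read in bulk, so fewer cells of a type and less RNA per cell cannot be told apart.

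The promoters of 3 genes are shown because they stand for the main groups that fell: KLK3 for the androgen-induced genes, CCNB2 for mitosis and MCM3 for DNA replication. Each run is the 250 bases before the RefSeq start, 5′ to 3′ on the gene's strand, in GRCh38.p14. They lie at chr19:50854665-50854914 (plus strand), chr15:59104896-59105145 (plus strand) and chr6:52284743-52284992 (minus strand). Capitals mark AGAACA, the core letters of an androgen response element, in KLK3. In CCNB2 they mark TTTGAA, the cell cycle homology region, and CCAAT, the box bound by the factor NF-Y. In MCM3 they mark TTTNNCGC, an E2F site.
KLK3: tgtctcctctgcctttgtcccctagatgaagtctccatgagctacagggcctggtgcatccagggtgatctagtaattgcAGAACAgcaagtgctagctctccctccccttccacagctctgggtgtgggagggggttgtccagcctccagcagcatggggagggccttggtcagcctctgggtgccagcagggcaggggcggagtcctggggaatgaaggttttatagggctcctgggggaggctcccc
CCNB2: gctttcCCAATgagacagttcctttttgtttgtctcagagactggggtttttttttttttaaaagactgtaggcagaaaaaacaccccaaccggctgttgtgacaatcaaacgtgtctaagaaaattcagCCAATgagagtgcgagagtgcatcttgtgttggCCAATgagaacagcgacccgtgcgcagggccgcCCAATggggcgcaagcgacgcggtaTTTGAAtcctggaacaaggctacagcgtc
MCM3: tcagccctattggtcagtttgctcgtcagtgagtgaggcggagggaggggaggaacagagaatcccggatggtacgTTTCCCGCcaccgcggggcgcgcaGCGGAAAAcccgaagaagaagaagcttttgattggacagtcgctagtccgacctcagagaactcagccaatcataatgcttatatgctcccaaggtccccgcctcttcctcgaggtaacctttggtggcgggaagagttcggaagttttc

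KLK3 held 1 AGAACA in this window, CCNB2 held 1 TTTGAA and 4 CCAAT boxes, and MCM3 held 2 E2F sites. The same letters were counted on both strands of the first RefSeq promoter of each gene, from 250 bases before the start to 50 after it, where 11013 of the tested genes had an entry. TTTGAA lay in 20 of 29 promoters of the G2/M and mitosis list, or 69% of them, against 9.54% of the promoters of all tested genes. CCAAT lay in 79.3% of those mitotic promoters against 37.1%, and TTTNNCGC in 20 of 30 replication promoters, or 66.7%, against 10.4%. AGAACA lay in 3 of 23 promoters of androgen-induced genes, or 13%, against 8.93%. ATCAAT, a core ONECUT site, lay in 3.32% of the promoters of genes called higher, in 2.81% of those called lower and in 3.19% of all tested. Among genes of at least 2-fold change it lay in 3.64% of the promoters of those higher and in 5.01% (37 of 738) of those lower. TGACGTCA, the cyclic AMP response element, lay in 3.16%, 3.44% and 3.25% in the same order. The first 3 motifs were searched after the calls were known. A match is a description of these letters and not of a bound site.

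The 6 libraries held between 22615580 and 22956157 counts. Levels are given as CPM, counts divided by the TMM-scaled library size. The first principal component held 76.6% of the variance and separated the arms, and the second, with 8.8%, set combination replicate 2 apart from replicates 1 and 3. Chi-square per gene was 16.8 and 16.3 between replicate 2 and the other combination libraries, 3.38 between those other libraries, and at most 8.48 between vehicle libraries. All 9 luminal prostate markers, among them KRT8, HOXB13 and FOLH1, were detected in every library, at 5.06 CPM or more. Of 15 markers of blood, endothelial, stromal and basal cells, 3 were at 0 in all libraries: PTPRC, COL1A2 and TP63. The 15 together summed to 41.2 to 51.2 CPM with the combination and to 47.3 to 54.2 with vehicle, most of it from COL1A1, VWF and CD68. Their part in the results was not tested.

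With the combination, 4655 of 16013 tested genes were higher and 4738 lower than with vehicle at an adjusted p under 0.05 by edgeR's quasi-likelihood test with Benjamini-Hochberg adjustment. These are 29.1% and 29.6% of the genes tested, and 58.7% in either direction. The libraries of the arms did not overlap for 65.7% of the genes. A change of at least 2-fold was called for 1335 genes in the upward direction (8.34%) and 1062 in the downward direction (6.63%). The median log2 fold change over all tested genes was 0.01. Among the 4003 genes of the highest level 1758 were lower and 1199 higher, and among the 4004 of the lowest level 929 were higher and 574 lower. Of 694 long noncoding RNAs 215 (31%) were higher and 85 (12.2%) lower, at a median of 0.25. The genes of the lowest level, 23.2% higher and 14.3% lower, had a median of 0.16.

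**Figure D1:**
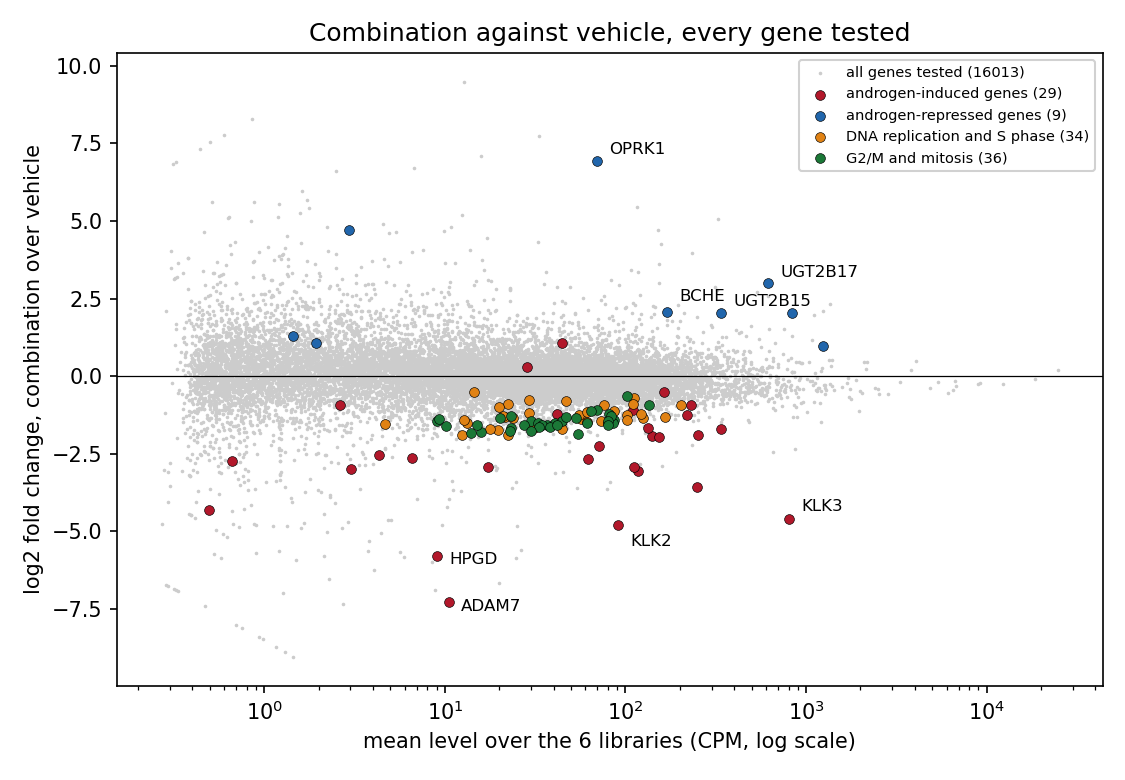
Each point is a gene: mean level over the 6 libraries in CPM on a log axis, and log2 fold change of combination over vehicle. Androgen-induced genes (29) reach from the centre far down, androgen-repressed genes (9) all lie above 0, and the replication (34) and mitosis (36) genes form a band under 0.

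ONECUT2, the target of the inhibitor, was not called by this test at the RNA level. Its libraries read 12.8, 14.9 and 12.5 CPM with the combination and 15.8, 15.5 and 13.1 CPM with vehicle. The arms overlapped, and the log2 fold change was -0.14 (SE 0.11, adjusted p = 0.296). An inhibitor of a protein need not change its RNA, so this level is no check of the treatment. Of its family, CUX1 rose by 1.05 on the log2 scale, from 92.2, 90.3 and 90.4 CPM to 186, 186 and 193 CPM, and CUX2 fell to 1 count per combination library. For CUX2 the ratio of vehicle to combination counts was 18.8 with a 95% Clopper-Pearson interval of 6.08 to 93.9, which covers counting error only.

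Genes that androgens induce fell steeply. Of the 30 listed genes 29 were tested, and 27 fell while 2 rose, at a median log2 fold change of -2.26. In the same comparison 29.6% of all tested genes fell. KLK3, which encodes prostate-specific antigen, read 68, 53.7 and 69.2 CPM with the combination and 1429, 1706 and 1508 CPM with vehicle. The arms lay far apart, and KLK3 fell 24.3-fold, with a log2 fold change of -4.60 (SE 0.12, adjusted p = 1e-08). KLK2, a related protease and itself a therapy target, read 6.57, 5.06 and 7.39 CPM against 165, 192 and 171 CPM with vehicle. It fell 27.7-fold, the arms again without overlap. FKBP5, a chaperone of steroid receptors, read 23.7, 25.9 and 26.3 CPM against 201, 219.8 and 205 CPM. It fell 8.25-fold, with a log2 fold change of -3.04 (SE 0.07, adjusted p = 8.96e-09).

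Some androgen-induced genes came close to silence. ADAM7, a membrane protein of the epididymis and prostate, read 0.17, 0.043 and 0.17 CPM with the combination, 9 counts in all, and 19.6, 23.2 and 19.8 CPM with vehicle. HPGD, which inactivates prostaglandins, read 0.339, 0.3 and 0.297 CPM against 17.9, 19.8 and 15.4 CPM. Both fell, HPGD by 55.7-fold. TMPRSS2, the protease whose promoter is fused to ETS genes in many prostate cancers, fell less, from 496, 582 and 477 CPM to 160.5, 158 and 158 CPM. The 2 listed genes that rose were ACP3, prostatic acid phosphatase, and LIFR, a cytokine receptor. ACP3 read 70.5, 41.3 and 69.6 CPM against 24.1, 38.1 and 23.8 CPM with vehicle, with replicate 2 the lowest of the combination and the highest of the vehicle libraries. LIFR rose by only 0.29 on the log2 scale, and its call was lost without vehicle replicate 1 (adjusted p = 0.0539) or vehicle replicate 3 (0.0513). The 27 falls were called under each of the 12 alternative settings.

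The kallikrein genes stand in 1 cluster at chr19:50819148-51084245 (hg38, GENCODE 29), and 4 of its 15 genes were expressed enough to test. From one end to the other these were KLK15, KLK3, KLK2 and KLK4, and all 4 fell. KLK15 changed by -3.00 and KLK4 by -1.94 on the log2 scale, against -4.60 for KLK3 and -4.79 for KLK2. KLK4 read 58.2, 53.1 and 63.1 CPM with the combination and 224, 209.6 and 235 CPM with vehicle, so it kept a larger share of its vehicle level than its neighbours.

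**Figure D2:**
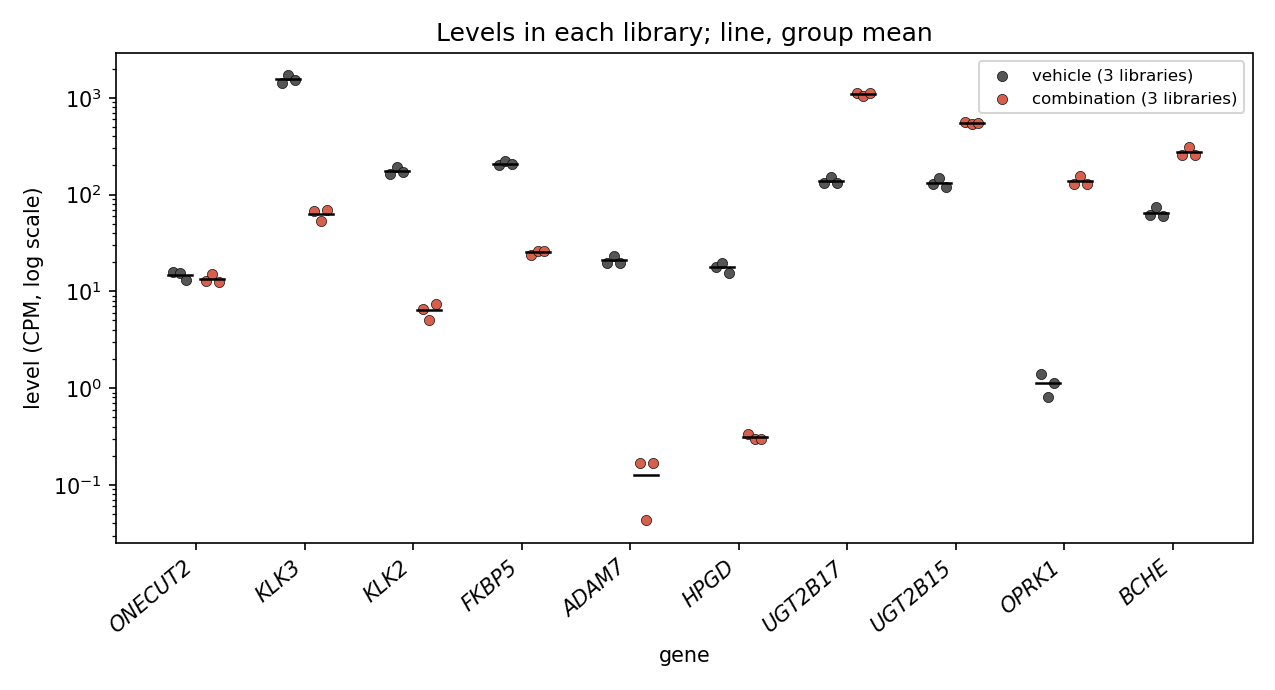
Levels of 10 genes in each of the 6 libraries, in CPM on a log axis, with a line at the mean of each arm of 3 libraries. The arms overlap for ONECUT2 alone among these genes, the combination lies lower for the androgen-induced genes from KLK3 to HPGD, and it lies higher for the androgen-repressed genes from UGT2B17 to BCHE.

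Genes that androgens repress rose. All 9 tested of 10 listed genes were higher, at a median log2 fold change of 2.05, where 29.1% of all tested genes were higher. OPRK1, the kappa opioid receptor, read 129.9, 155 and 129 CPM with the combination and 1.41, 0.818 and 1.12 CPM with vehicle. It rose 123-fold, with a log2 fold change of 6.94 (SE 0.14, adjusted p = 8.96e-09). BCHE, butyrylcholinesterase, read 255, 309 and 255 CPM against 60.8, 73.8 and 59.9 CPM and rose 4.21-fold. CAMK2N1, an inhibitor of a calcium-dependent kinase, rose from 334, 330.4 and 318 CPM to 1209, 1517 and 1289 CPM. CCN3, a secreted matricellular protein, rose from 0.136, 0.273 and 0.225 CPM to 4.2, 7.98 and 4.97 CPM. FOLH1, which encodes prostate-specific membrane antigen, rose by 0.96 on the log2 scale, from 833, 885 and 804 CPM to 1724, 1518 and 1661 CPM. The 9 rises were called under each of the 12 alternative settings.

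The glucuronidation enzymes of the UGT2 cluster at chr4:68537184-69653249 split in 2 directions. UGT2B17 read 1128, 1048 and 1108 CPM with the combination and 132, 151 and 132 CPM with vehicle, a log2 fold change of 2.99 (SE 0.07, adjusted p = 9.63e-09). UGT2B15, its neighbour, read 557, 529.7 and 552 CPM against 129, 147 and 121 CPM, a log2 fold change of 2.05 (SE 0.08, adjusted p = 7.26e-08). These are the enzymes of the cluster best known for inactivating androgens, and both rose without overlap of the arms. UGT2B28 fell from 17.8, 21.6 and 19.4 CPM to 0.848, 1.12 and 1.19 CPM, and UGT2B11 from 101, 117 and 96.5 CPM to 16.1, 16.3 and 17.4 CPM. UGT2B10, UGT2B7 and UGT2B4, the other tested genes of the cluster, fell by smaller amounts, with log2 fold changes of -0.76, -1.34 and -1.44. The rising pair lies at one end of the cluster, at chr4:68537184-68568527 and chr4:68646630-68670628. The call of UGT2B7 was lost without combination replicate 3 (adjusted p = 0.0504) and by DESeq2 (0.106). Transcripts of this family are alike in sequence, so the division of reads among its members is uncertain.

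Of 12 tested enzymes that make or convert androgens 4 were higher and 5 lower, beside 29.1% and 29.6% of all tested genes. CYP11A1, the first enzyme of steroid synthesis, fell from 5.72, 4.04 and 5.98 CPM to 0.17, 0.129 and 0.212 CPM. HSD17B14 rose from 1.14, 1.14 and 1.21 CPM to 6.7, 7.04 and 6.33 CPM, and HSD17B11 changed by -1.31 on the log2 scale. AKR1C3, which makes testosterone from a weaker precursor, rose by 1.45, a call that was lost (adjusted p = 0.0594) where the enzalutamide libraries shared the fit. The rest were HSD17B4 and STS among those higher and SRD5A1, SRD5A3 and HSD17B10 among those lower, each by less than 2-fold. The call of HSD17B4 was lost without vehicle replicate 1 (adjusted p = 0.0557), and with the enzalutamide libraries in the fit those of HSD17B4 (0.0607) and HSD17B10 (0.143) were lost too.

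Targets of the glucocorticoid receptor, which shares many binding sites with the androgen response, mostly fell. Of 16 tested genes of the list for the receptor and its targets, 10 fell and 1, KLF9, rose. Over all tested genes 29.6% fell and 29.1% rose. ZBTB16, a transcriptional repressor, fell from 61.1, 66.7 and 62.7 CPM to 24.6, 24.5 and 25.3 CPM, and MT2A, a metallothionein, from 154, 164 and 171 CPM to 52.9, 65.1 and 64.1 CPM. The receptor gene itself, NR3C1, stayed under 1 CPM in every library and was not called (adjusted p = 0.0964).

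Luminal identity genes were mixed, with 7 of 18 tested members higher and 7 lower at a median of -0.02. Of all tested genes 29.1% were higher and 29.6% lower. The pioneer factors that open luminal enhancers were higher: FOXA1 read 745, 862 and 756 CPM against 612, 604 and 604 CPM, and HOXB13 683, 764 and 697 CPM against 487, 486 and 483 CPM. GATA2 rose further, from 231, 242 and 243 CPM to 607, 685 and 616 CPM, with a log2 fold change of 1.42 (SE 0.06, adjusted p = 2.13e-07). The arms did not overlap for any of these 3 factors. AGR2, a secretory pathway protein, fell from 31.8, 40.4 and 30.6 CPM to 3.86, 5.06 and 3.82 CPM, and DPP4, a surface peptidase, from 4.45, 6.86 and 4 CPM to 1.23, 0.944 and 1.1 CPM. CDH1, the epithelial cadherin, read 635, 663 and 617 CPM against 603, 658 and 596 CPM and was not called (adjusted p = 0.559). KRT8 was not called either, at 0.13 on the log2 scale, though library-size scaling alone called it higher.

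Markers of the neuroendocrine state were scarce, since 5 of 24 listed genes had enough counts to test, and 3 of the 5 were called higher. Over all tested genes 29.1% were called higher. ENO2, neuron-specific enolase, rose from 13.1, 15 and 12.9 CPM to 55.4, 58.7 and 53.7 CPM. SYP and SYT4, of synaptic vesicles, were higher by 0.73 and 0.57 on the log2 scale. The call of SYP was lost without combination replicate 3 (adjusted p = 0.0692) and without vehicle replicate 1 (0.0541), and that of SYT4 without vehicle replicate 1 (0.0602) and without vehicle replicate 3 (0.0613). DLL3, a Notch ligand and therapy target, changed by -0.84. SRRM4, the neural splicing factor, held 2 counts in the combination libraries and 5 in the vehicle libraries and was not tested. REST, the repressor of neural genes, rose from 48.9, 53.7 and 47.8 CPM to 64.9, 70.3 and 62.8 CPM.

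Mesenchymal genes were also divided, with 3 of 12 tested members higher and 7 lower, beside 29.1% and 29.6% of all tested genes. SNAI2, a repressor of epithelial genes, fell from 4.13, 4 and 4.76 CPM to 0.042, 0.172 and 0.17 CPM. FBN1, of the extracellular matrix, fell from 1.32, 1.18 and 1.44 CPM to 0.212, 0.129 and 0.042 CPM, and LOX, which crosslinks it, from 1.41, 0.999 and 1.3 CPM to 0.212, 0.257 and 0.17 CPM. FN1, COL5A1 and TAGLN rose, with FN1 going from 244, 322 and 248 CPM to 709, 643 and 628 CPM. The call of TAGLN was lost without combination replicate 2 (adjusted p = 0.0521) or vehicle replicate 2 (0.0591), and with the enzalutamide libraries in the fit (0.0886).

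The surface proteins used as targets of prostate cancer therapy were higher for 7 of 12 tested members and lower for 4. Of these changes 1 rise and 1 fall were at least 2-fold. Over all tested genes 29.1% were higher and 29.6% lower. STEAP2, a metalloreductase, rose from 657, 684 and 659 CPM to 1560.1, 1413 and 1472 CPM. KLK2, DLL3 and PSCA fell, and CD46 changed by -0.16. The call of CD46 was lost without combination replicate 1 or 3 or vehicle replicate 1 or 2 (adjusted p from 0.0707 to 0.123), and under library-size scaling (0.24), with no filter (0.0724) and with the enzalutamide libraries in the fit (0.17). PSCA, a glycolipid-anchored antigen, read 4.45, 5.36 and 4.88 CPM against 9.21, 7.5 and 9.08 CPM.

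Every gene of the DNA replication list and of the mitosis list fell. All 34 genes of DNA replication and S phase were lower, at a median log2 fold change of -1.31, and all 36 genes of G2/M and mitosis, at a median of -1.52. These counts were the same under each of the 12 alternative settings, among them the fit without combination replicate 2. E2F2, a transcription factor that drives S phase entry, read 4.92, 4.68 and 6.28 CPM with the combination and 18.4, 20.3 and 20.05 CPM with vehicle. MCM10, an initiation factor, read 10.9, 7.9 and 9.98 CPM against 35.8, 34.2 and 36.1 CPM, and CDC6, which loads the replicative helicase, 22.6, 15.1 and 24.9 CPM against 69.2, 68.1 and 66.6 CPM. In CDC6 and CDC45 replicate 2 was the lowest of the combination libraries and the arms did not overlap. MCM3, a subunit of that helicase, read 58.1, 43.2 and 61.2 CPM against 118, 117 and 119 CPM, a log2 fold change of -1.12 (SE 0.11, adjusted p = 2.14e-05). Replication-dependent histones formed a separate list, with 6 of 16 tested members higher and 1 lower, at a median of 0.01. Among all tested genes 29.1% were higher and 29.6% lower.

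Mitotic genes fell too. HMMR, a spindle protein, read 25.6, 17.2 and 27.6 CPM against 88.1, 90.4 and 79.5 CPM, a log2 fold change of -1.87 (SE 0.14, adjusted p = 4.95e-06). NUF2 and NDC80, which form the outer kinetochore, changed by -1.84 and -1.76 on the log2 scale, and TTK, a checkpoint kinase, by -1.81. CCNB2, cyclin B2, read 20.5, 16.8 and 25.7 CPM against 61, 58.6 and 61.2 CPM, with a log2 fold change of -1.52 (SE 0.12, adjusted p = 7.16e-06). Homologous recombination and repair genes, many of them expressed in S phase, were lower for all 23 members at a median of -1.10. EXO1, a nuclease that resects breaks, fell from 21.5, 22 and 20.05 CPM to 6.15, 5.32 and 7.47 CPM. BRCA1 fell from 43.5, 43 and 37.5 CPM to 17.7, 11.3 and 16.8 CPM, and BLM, a helicase, from 10.1, 9.31 and 9.89 CPM to 3.94, 1.67 and 3.48 CPM. EZH2, the methyltransferase of the Polycomb complex, fell from 37.6, 35.3 and 37.7 CPM to 17.5, 14.2 and 18.1 CPM.

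The genes that gate entry to the cycle moved less evenly, with 3 of 14 tested members higher and 6 lower. The shares over all tested genes were 29.1% and 29.6%. CDK6, a partner of the D cyclins, fell from 7.22, 8.22 and 7.55 CPM to 1.19, 1.93 and 0.764 CPM. CCND1, cyclin D1, read 370.2, 348 and 359.5 CPM against 336, 359.9 and 333 CPM and was not called (adjusted p = 0.331), though library-size scaling alone called it higher. RBL2, a member of the RB family that acts in resting cells, rose from 103, 115 and 111 CPM to 160.4, 182 and 161 CPM, and RBL1 changed by -0.83 on the log2 scale. CDKN1A, the CDK inhibitor p21, read 217, 392 and 225 CPM against 507, 587 and 539 CPM and changed by -0.97.

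The targets of p53, which arrest the cycle or promote death, mostly fell. Of 25 tested targets 18 fell and 5 rose, at a median of -0.71, where 29.6% of all tested genes fell and 29.1% rose. GDF15, a stress-induced cytokine, fell from 1356, 1621 and 1366 CPM to 239.6, 355 and 255 CPM, a log2 fold change of -2.35 (SE 0.14, adjusted p = 1.27e-06). FAS, a death receptor, fell from 8.9, 9.4 and 7.87 CPM to 1.74, 2.7 and 2.08 CPM, and PMAIP1, which promotes cell death, from 15.2, 15 and 13.4 CPM to 6.32, 3.95 and 5.9 CPM. The 5 that rose were TP53I3, TP53INP1, SESN1, RRM2B and BTG2, at log2 fold changes from 0.25 for TP53INP1 to 0.64 for SESN1. Their number fell to between 2 and 4 without 1 library. The calls of SESN1 and TP53I3 were lost without any 1 library other than combination replicate 2 (adjusted p from 0.0537 to 0.0885 and from 0.0745 to 0.13), and that of SESN1 also by DESeq2 (0.0616). That of BTG2 was lost without combination replicate 2, vehicle replicate 1 or vehicle replicate 3 (adjusted p from 0.109 to 0.179), and with the enzalutamide libraries in the fit (0.0609). SESN1 read 148, 75.8 and 142 CPM against 81.6, 77.4 and 76.5 CPM, with combination replicate 2 below the vehicle libraries.

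**Figure D3:**
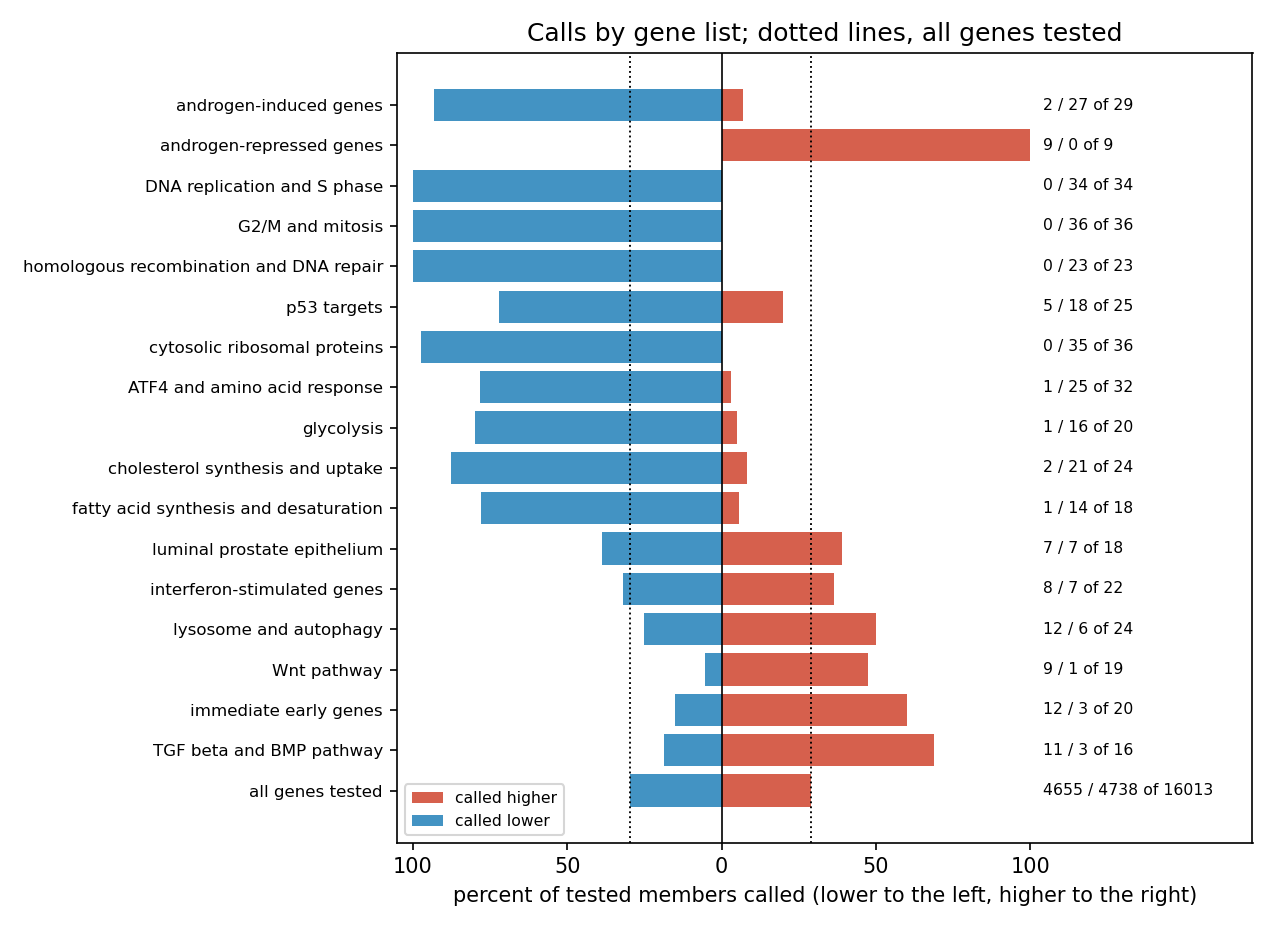
Percent of the tested members of each list called higher (to the right) or lower (to the left), with the counts beside each bar. Dotted lines mark the shares over all genes tested, 29.1% higher and 29.6% lower. The cell cycle, repair and ribosomal lists lie almost wholly on the lower side and the androgen-repressed list wholly on the higher side.

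Most genes of lipid and sugar metabolism fell as well. In cholesterol synthesis and uptake 21 of 24 genes were lower and 2 higher, at a median of -0.60. In fatty acid synthesis 14 of 18 were lower and 1 higher, at a median of -0.68. The shares over all tested genes were 29.6% lower and 29.1% higher. FASN, fatty acid synthase, read 1269, 1237 and 1208 CPM with the combination and 2839.6, 2599 and 2678 CPM with vehicle, a log2 fold change of -1.13 (SE 0.06, adjusted p = 4.62e-07). Of the elongases of long fatty acids, ELOVL5 fell from 1049, 1253 and 1021 CPM to 204, 206 and 204 CPM and ELOVL7 from 95.2, 111 and 91.3 CPM to 8.1, 7.98 and 8.11 CPM. ACSL3, which activates fatty acids and is also an androgen-induced gene, changed by -1.90 on the log2 scale. ELOVL2 fell from 1.82, 1.91 and 1.48 CPM to 0.085, 0 and 0.085 CPM. TM7SF2 and SC5D rose in the cholesterol list, TM7SF2 from 320.4, 335 and 341 CPM to 746, 767 and 775 CPM, and ACSL4 rose in the fatty acid list by 0.81.

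In glycolysis 16 of 20 tested genes were lower and 1, ALDOC, higher, at a median of -0.57. LDHA, lactate dehydrogenase, read 263, 246 and 274 CPM against 639.7, 776 and 672 CPM, and ENO1, enolase, 650.3, 592 and 651 CPM against 1359, 1470.2 and 1351 CPM. HK2, the inducible hexokinase, fell from 43.7, 53 and 46.2 CPM to 10.2, 8.37 and 11.8 CPM. SLC2A3, a glucose transporter, was at 1 count over the 3 combination libraries and 1.09, 0.999 and 1.03 CPM with vehicle, a ratio of counts of 73.3 with an interval of 12.7 to 2940.0. Fatty acid oxidation went the other way for more of its genes, with 8 of 18 higher and 4 lower. The shares over all tested genes were 29.1% and 29.6%. HADHB, which completes a round of oxidation, rose from 117, 133 and 118 CPM to 266, 249 and 263 CPM. Without combination replicate 2 the lower members of that list numbered 7.

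Genes of protein production were lower. Of 36 tested cytosolic ribosomal protein genes 35 fell, at a median of -0.51, and the list ran from 29 to 36 lower over the alternative settings. RPL32 read 490.5, 406 and 533 CPM with the combination and 861, 864 and 825 CPM with vehicle, and RPS16 395, 322 and 411 CPM against 680.1, 688 and 698 CPM. RPLP1 was the 1 gene not called (adjusted p = 0.0537), though it was called lower by DESeq2 (0.0268) and without combination replicate 2 (0.0465) or 3 (0.0241). Of 32 genes of the ATF4 and amino acid response 25 fell and 1, DDIT3, rose, and ATF4 itself was not called (adjusted p = 0.114), though it was by DESeq2 (0.0478) and without combination replicate 3 (0.0481). MTHFD2, of mitochondrial folate metabolism, fell from 117, 118 and 112 CPM to 50.5, 38.1 and 49.5 CPM, and SLC1A5, a glutamine transporter, from 202, 195 and 209 CPM to 88.8, 70.8 and 90.4 CPM. Endoplasmic reticulum chaperones were lower for 20 of 25 genes and higher for 1, DNAJB9, at a smaller median of -0.33. The call of DNAJB9 was lost without combination replicate 1, vehicle replicate 1 or vehicle replicate 3 (adjusted p from 0.0608 to 0.0895). SRM and ODC1, which make polyamines, changed by -1.32 and -0.82 on the log2 scale. Of the 13 tested genes of polyamine synthesis and transport 6 were lower, 2 higher and 5 not called, at a median of -0.155. Among all tested genes 29.6% were lower and 29.1% higher. Combination replicate 2 lay below the mean of the other combination libraries by a median of 0.28 for the ribosomal genes on the log2 scale. In the ATF4 list it lay below by 0.38, in the chaperone list by 0.15 and in DNA replication by 0.42. In the polyamine list it lay above by 0.04.

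Immediate early genes and the TGF beta and BMP pathway held more rises than falls. Of 20 tested immediate early genes, which answer growth factor and stress signals within minutes, 12 were higher and 3 lower, at a median of 0.82, where 29.1% of all tested genes were higher and 29.6% lower. EGR1, a zinc finger factor, read 164, 321 and 192 CPM with the combination and 3.68, 7.86 and 4.04 CPM with vehicle, a log2 fold change of 5.44 (SE 0.33, adjusted p = 1.18e-06). FOS read 168, 505 and 147 CPM against 24.9, 50.3 and 28 CPM, and SPRY4, a feedback inhibitor of receptor kinase signalling, 24.5, 50.4 and 22.7 CPM against 1.41, 1.73 and 1.3 CPM. In all 3 genes replicate 2 was the highest of the combination libraries, and the arms did not overlap. The median of the list stood 0.80 higher in replicate 2 than in the mean of replicates 1 and 3, and without replicate 2 the counts were 11 higher and 4 lower. KLF4 was not called with all 6 libraries (adjusted p = 0.15) and fell by 1.82 without combination replicate 2. The 3 lower genes were ATF3, KLF6 and JUND, and ATF3 changed by -1.39. The call of JUND was lost without any 1 library other than combination replicate 2 (adjusted p from 0.0705 to 0.11), and under library-size scaling (0.0857) and with the enzalutamide libraries in the fit (0.126).

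In the TGF beta and BMP pathway 11 of 16 tested genes were higher and 3 lower, at a median of 0.85. The shares over all tested genes were 29.1% and 29.6%. The inhibitors of differentiation, direct targets of BMP signals, rose: ID1 read 112, 227 and 106 CPM against 18, 14 and 19.9 CPM, and ID3 99.2, 233 and 103 CPM against 32.1, 29.4 and 33.7 CPM. TGFB1, a ligand, rose from 0.272, 0.318 and 0.405 CPM to 1.02, 1.03 and 0.807 CPM. The receptor BMPR1B fell from 14.7, 20.9 and 15 CPM to 5.68, 2.15 and 6.2 CPM, with TGFBR2 and BMP6 the other genes that fell. The call of TGFBR2 was lost without combination replicate 3 or any 1 vehicle library (adjusted p from 0.0567 to 0.122), and by DESeq2 (0.104), under library-size scaling (0.0544) and with no filter (0.0641). That of BMP6 was lost without replicate 1 or 3 of either arm (adjusted p from 0.0697 to 0.0915).

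Of 19 tested Wnt genes 9 were higher and 1, the receptor FZD5, lower, beside 29.1% and 29.6% of all tested genes. ROR2, a receptor of the noncanonical branch, rose from 0.454, 0.545 and 0.225 CPM to 4.03, 5.71 and 4.03 CPM. LEF1, the nuclear partner of beta-catenin, rose from 4.9, 2.73 and 4.09 CPM to 14.5, 28.5 and 15.6 CPM, and the receptors FZD7 and FZD4 by 1.76 and 1.43 on the log2 scale. Without combination replicate 2 the counts were 8 higher and 3 lower.

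Of receptor kinases and their ligands 8 of 22 tested members were higher and 7 lower, shares near those over all genes (29.1% and 29.6%). IGF1R, the receptor of insulin-like growth factors, read 7.8, 9.44 and 7.64 CPM against 56.1, 63 and 52.8 CPM, a log2 fold change of -2.79 (SE 0.10, adjusted p = 7.26e-08). RET, a receptor of neurotrophic ligands, rose from 0.454, 0.182 and 0.539 CPM to 1.99, 4.33 and 1.53 CPM. TGFA, a ligand of the epidermal growth factor receptor, rose from 1.5, 2.68 and 2.11 CPM to 11.2, 9.7 and 11.8 CPM.

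Interferon-stimulated genes were higher for 8 of 22 tested members and lower for 7, again near the 29.1% and 29.6% over all genes. Examples were OAS3, an antiviral enzyme that fell from 35.1, 40.8 and 35.1 CPM to 15, 13.8 and 15.6 CPM and IRF9, a factor of interferon signalling, which rose from 4.81, 4.95 and 5.89 CPM to 11.3, 10.7 and 11.3 CPM. Genes of MHC class I presentation were higher for 6 of 15 and lower for 2, with HLA-B rising from 47.6, 52.6 and 48 CPM to 99.6, 95.9 and 96.6 CPM and TAP2 changing by -0.96 on the log2 scale. CD274, the checkpoint ligand PD-L1, read 69.95, 50.5 and 67.6 CPM against 3.18, 2.77 and 3.37 CPM, a log2 fold change of 4.33 (SE 0.15, adjusted p = 5.7e-08). It belongs to no list. Lysosome and autophagy genes were higher for 12 of 24 and lower for 6, among them LAMP2, of the lysosomal membrane, which rose by 0.76, and NPC1, a cholesterol exporter, which changed by -1.35.

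Genes with the steepest changes came from several of these classes and from others. Among protein-coding genes with a mean of at least 5 CPM in one arm and no overlap, the 12 steepest falls were CCDC141, ADAM7, TRIM49D1, ST6GALNAC1, PGC, LAMA1, ANGPT2, HPGD, TM4SF1, TUBA3D, CYP11A1 and AFF3. CCDC141, a coiled-coil protein, held 2 counts over the combination libraries and 5.22, 5.54 and 5.62 CPM with vehicle, a ratio of counts of 192 with an interval of 52.9 to 1590.0. ST6GALNAC1, a sialyltransferase, read 0.17, 0.772 and 0.212 CPM against 38.2, 42.8 and 38.1 CPM, and PGC, the gastric protease pepsinogen C, 0.127, 0.086 and 0.085 CPM against 6.86, 8.99 and 8.18 CPM. LAMA1, a laminin chain, and ANGPT2, a vessel-remodelling ligand, changed by -6.00 and -5.84 on the log2 scale. TM4SF1, TUBA3D and AFF3 changed by -5.59, -5.30 and -4.83. TRIM49D1 has near-identical copies, so its reads may be divided.

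The 12 steepest rises by the same rule were DAB1, AOC1, PCDH11X, OPRK1, HLA-DRA, EGR1, SLC6A19, LRRN1, GRIK1, MATN2, CCN3 and PCDH11Y. DAB1, an adaptor of reelin signalling in neurons, held 2 counts over the vehicle libraries and read 30.9, 14.3 and 31.4 CPM with the combination, a ratio of counts of 848 with an interval of 235 to 7010.0. AOC1, an amine oxidase that degrades histamine, read 56.5, 78.2 and 63.5 CPM against 0.182, 0.227 and 0.494 CPM. LRRN1, a leucine-rich neuronal membrane protein, rose from 17.6, 20.7 and 18 CPM to 625, 643 and 633 CPM, a log2 fold change of 5.08 (SE 0.08, adjusted p = 1.04e-09). HLA-DRA, a chain of MHC class II, rose from 0.136, 0.136 and 0.09 CPM to 13.3, 11.4 and 15.2 CPM. PCDH11X and PCDH11Y, a pair of protocadherins that are nearly identical on the X and Y chromosomes, rose by 7.08 and 4.70 on the log2 scale, and reads may be divided between them. SLC6A19, an amino acid transporter, read 14.8, 44.9 and 12.9 CPM against 0.318, 0.727 and 0.899 CPM, and GRIK1, a glutamate receptor subunit, 9.03, 8.71 and 8.66 CPM against 0.454, 0.136 and 0.27 CPM.

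Among genes of at least 2-fold change those of the highest levels included FASN, AIDA, SELENBP1, MME, STEAP2, ENO1, SCD, GDF15 and ABHD2. AIDA rose from 424, 513 and 414 CPM to 2281, 2276 and 2282 CPM, with less spread among the combination than among the vehicle libraries. MME, the surface peptidase neprilysin, rose from 424, 532 and 403 CPM to 1819.8, 1684 and 1765 CPM, and SELENBP1, a selenium-binding protein, from 464, 452 and 497 CPM to 1747, 2639.6 and 1680.5 CPM. SCD, which desaturates fatty acids, fell from 1232, 1334 and 1226 CPM to 588, 351 and 599 CPM, with replicate 2 the lowest.

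**Figure D4:**
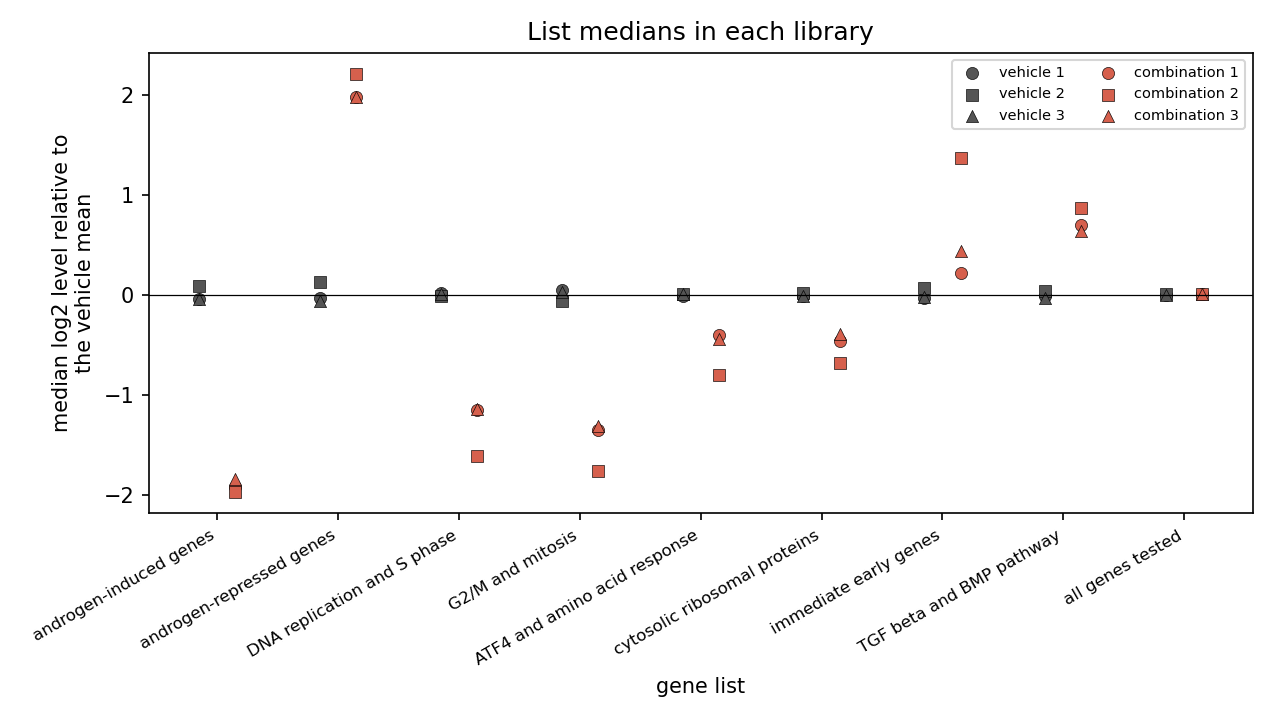
Median log2 level of each list's tested genes in each library, relative to the mean of the vehicle libraries. The 3 combination libraries lie on the same side of 0 in every list shown, and within 0.011 of it for all genes tested. Replicate 2, drawn as squares, lies apart in the cell cycle, ATF4, ribosomal and immediate early lists, at 1.37 for immediate early genes against 0.22 and 0.44.

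The hairpin libraries target OC2 by another route, in the same line and with no library shared with the drug experiment, in 2 libraries per arm. ONECUT2 RNA changed there by -0.77 on the log2 scale (adjusted p = 4.63e-05). With the hairpin, 54.1% of 16575 tested genes were called, 27.3% higher and 26.8% lower. In a joint model the combination effect differed from the hairpin effect for 8105 of 14878 genes, 54.5% of them. Across 13657 genes tested in both, 1442 were higher in both, which is 35.8% of those higher with the combination and 35.4% of those higher with the hairpin. Lower in both were 1577, or 35.3% and 40.4% of the respective lists. Another 1050 genes were higher with the combination and lower with the hairpin, or 26.1% and 26.9% of those lists, and 1239 were the reverse, or 27.7% and 30.4%. Over all 13657 genes the combination called 29.5% higher and 32.7% lower, and the hairpin 29.8% higher and 28.6% lower. The correlation of log2 fold changes across these genes was -0.01 by Pearson and 0.08 by Spearman, a description only, since genes are not independent replicates.

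Most of the androgen genes moved in opposite directions under the 2 treatments. Of 30 androgen-induced genes 22 were higher and 5 lower with the hairpin, beside 27.3% and 26.8% of all genes. The combination effect was below the hairpin effect for all 30 at an adjusted p under 0.05, where 28.2% of all genes tested were. KLK3 was higher by 0.66 with the hairpin, and the difference of the effects was -5.23 (SE 0.15, adjusted p = 1.74e-10). Of 8 androgen-repressed genes tested with the hairpin 6 were lower and none higher, and the combination effect was above the hairpin effect for 8 of 9, where 26.3% of all genes were. For UGT2B17 the hairpin effect was -3.27 and the difference 6.29 (SE 0.14, adjusted p = 1.33e-11). BCHE, at -5.07 with the hairpin against 2.08 with the combination, gave a difference of 7.18 (SE 0.21, adjusted p = 1.83e-10).

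Cell cycle genes fell under both. With the hairpin 31 of 34 replication genes and 33 of 36 mitotic genes were lower, at medians of -0.50 and -0.50 against -1.31 and -1.52 with the combination. The difference was called, with the combination the lower, for 27 of 34 and 32 of 36, and with the combination the higher for 1 replication gene, MCM3. MCM3 fell more with the hairpin, at -1.48, than with the combination, at -1.12, with a difference of 0.39 (SE 0.15, adjusted p = 0.0416). Ribosomal protein genes were higher with the hairpin for 20 of 36 and lower for 2, and the difference was called for 33 of 36. The p53 targets were higher for 16 of 25 with the hairpin, and the combination effect was below the hairpin effect for 19. With the hairpin 27.3% of all tested genes were higher and 26.8% lower. The combination effect was below the hairpin effect for 28.2% of all genes and above it for 26.3%.

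A further list stood apart between the 2 treatments. Replication-dependent histones were higher with the hairpin for all 15 tested, at a median of 2.09, and 6 of 16 were higher and 1 lower with the combination, at a median of 0.01. The difference was called for 14 of 16, with the combination the lower, beside 28.2% of all genes. H4C8 rose in both, by 1.15 with the combination and 2.23 with the hairpin. Most histone messages lack a poly(A) tail, so their levels also depend on how libraries select RNA, which is not given in the sources used here. ID1, ID3 and SPRY4 rose with both, by 3.10, 2.19 and 4.46 with the combination and by 3.84, 2.39 and 4.39 with the hairpin. Their differences were -0.71 (SE 0.54, adjusted p = 0.288) for ID1, -0.17 (SE 0.48, adjusted p = 0.79) for ID3 and 0.09 (SE 0.67, adjusted p = 0.921) for SPRY4, none of them called.

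**Figure D5:**
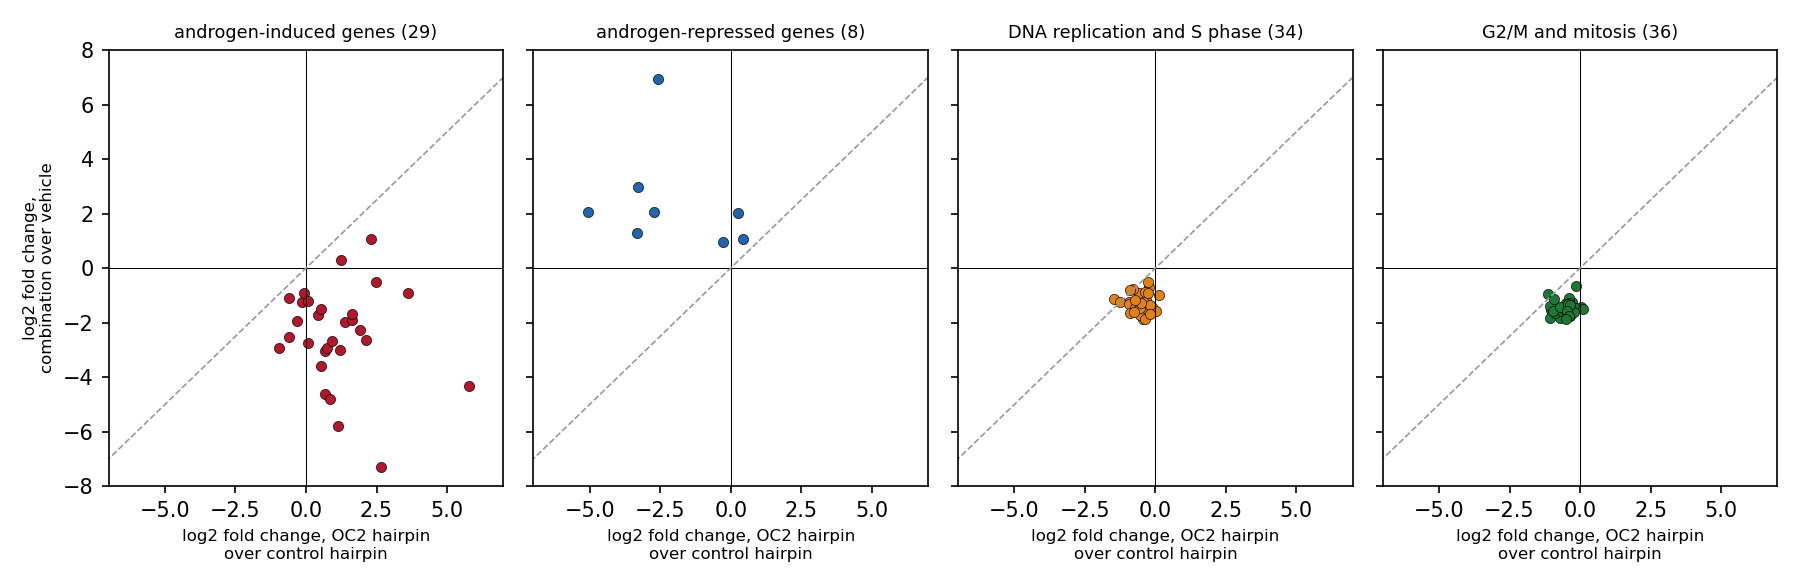
Members of 4 lists by log2 fold change with the OC2 hairpin over the control hairpin (x axis) and with the combination over vehicle (y axis), with the dashed line at equal change. Androgen-induced genes lie mostly to the lower right, androgen-repressed genes mostly to the upper left, and both cell cycle lists to the lower left, mostly under the line.

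Overexpression of OC2 in LNCaP, 2 libraries per arm, called 60.9% of 17036 tested genes. Of genes tested in both, 1309 were higher with the combination and lower with OC2, or 32.6% of the former and 33.3% of the latter, and 1497 were the reverse, or 33.9% and 34.8%. Higher in both were 1272, or 31.7% and 29.6%, and lower in both 1265, or 28.6% and 32.2%. Over all 13527 genes the combination called 29.7% higher and 32.7% lower, and OC2 overexpression 31.8% higher and 29% lower. UGT2B17, at 5.44, and OPRK1, at 6.72, were higher with OC2 overexpression as with the combination. KLK3 was lower in both, at -1.64 with OC2 overexpression. Other named genes went opposite ways. AGR2, UGT2B28, UGT2B11 and HPGD were higher with OC2 overexpression, at 9.1, 8.0, 7.7 and 4.8. With the combination they were lower, at -3.0, -4.2, -2.7 and -5.8. The same genes were higher with the OC2 hairpin too, at 2.24, 2.39, 2.42 and 1.13, so they did not follow the direction of the OC2 change.

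The enzalutamide columns of the same table hold whole counts from another counting step and cannot be tied to single samples, so their levels are given with no comparison. They held 27929438 to 28241076 counts. RPL26 read 7.56, 9.68 and 9.43 CPM there, 338, 304 and 346 CPM with the combination and 534, 563 and 508 CPM with vehicle, so levels are not compared between the counting steps. KLK3 read 157, 463 and 400.2 CPM with enzalutamide alone, FKBP5 37.5, 56.8 and 53.2 CPM and UGT2B17 521, 345 and 313 CPM. OPRK1 read 302, 186 and 179 CPM, CDC6 18.8, 59.4 and 52.6 CPM and EGR1 19.9, 18.7 and 27.4 CPM. In KLK3 and CDC6 the first column lay well below the other two, and in UGT2B17 and OPRK1 it lay above them.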

How the data were processed

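RNA-seq was read in LNCaP libraries. The authors deposited estimated counts per gene symbol for the combination and vehicle columns and for the other LNCaP table, and whole-number counts for the enzalutamide columns. The submitters' processing notes name FastQC 0.9.0, Bowtie2 and hg38; no source used here names the counter, the annotation or the use of strand. Of the symbols on several lines, 149 had reads, each with the same value on every line, and lines were summed, giving 54657 symbols, of which 64.8% matched a current symbol.

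Estimated counts were rounded and tested with edgeR 4.0.16 (R 4.3.3, limma 3.58.1): TMM scaling, filterByExpr, quasi-likelihood F-test and Benjamini-Hochberg adjustment over all genes tested, at 0.05. The fit held the combination and vehicle libraries only. The hairpin difference came from 1 model over both experiments. The scripts were tested on simulated counts. Alternatives were DESeq2 1.42.0, RLE or library-size scaling, no filter, a replicate block, the enzalutamide columns in the fit, and each library left out.

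Members and lists were chosen with earlier results of these data known. Named genes are ONECUT2, KLK3, FKBP5, UGT2B15, UGT2B17, NR3C1, FOXA1, HOXB13, REST and SRRM4, the 12 steepest protein-coding rises and falls of at least 5 CPM, up to 4 called and 2 uncalled members of each list, and the 10 highest of at least 2-fold. ACP3, ACSL4, ALDOC, BMP6, BTG2, CAMK2N1, CCNB2, CD274, CD46, COL1A1, COL5A1, DDIT3, DNAJB9, FN1, FZD5, HSD17B10, HSD17B4, JUND, KLF6, KLF9, KLK15, KLK4, LIFR, MCM3, RRM2B, SC5D, SESN1, SRD5A1, SRD5A3, STS, TAGLN, TGFBR2, TMPRSS2, TP53I3, TP53INP1, UGT2B10, UGT2B4 and UGT2B7 were named outside this rule, after their values were seen. Of the 166 genes named and tested, 58 share exon sequence with another annotated gene, so their reads may be divided. Some genes that the rule names are not reported here. Promoters are from RefSeq (GRCh38.p14) and gene coordinates from GENCODE 29 (hg38).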

Additional observations from a re-analysis of the deposited data

How the results depend on the processing

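Genes called numbered 9393 with all libraries, 8792 by DESeq2, 9392 by RLE scaling, 9523 by library-size scaling, 9404 with no filter and 8155 with the enzalutamide columns in the fit, and ran from 8247 to 9740 with 1 library left out. Library-size scaling moved the median of all genes by 0.08 on the log2 scale and gave 5492 higher and 4031 lower. The correlations of deviations between combination and vehicle libraries of the same replicate number were 0.03, 0.12 and 0.06, so the numbers were not taken to pair the samples, and with the replicate block 9375 genes were called. The hairpin comparison, with 2 libraries an arm, called 8973 genes, and 5096 to 7869 with 1 library left out, where the lone library is assumed to vary like the others. Its higher calls then ran from 2632 to 3953 and its lower calls from 2464 to 3917, lowest without shOC2 replicate 1 (5096) and without shOC2 replicate 2 (5564). Genes under about 1 CPM rest on few counts.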
